A study of Mus musculus with 4 samples.

Results

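The ATP-binding cassette (ABC) transporters and the organic ion carriers of the Slco and Slc22 families were followed in mouse liver 6 h into an infusion of short-chain fatty acids into the cecum. Members were the genes with an Abca to Abcg, Slco or Slc22a symbol, without Abcb11, Abcb1a, Abcd2 and Abcd3. This rule uses names only, but it was set with earlier results of these data known. There were 80 members among 18820 genes with 1 symbol on the array, measured by 82 probe sets. Male C57Bl/6J mice aged 16 to 17 weeks, kept 6 weeks on a semi-synthetic diet with palm oil and fitted with a permanent cecal catheter, were fasted in the morning and infused while awake. The groups were acetate (RNA of 6 mice), propionate (6 mice), butyrate (4 mice) and phosphate-buffered saline as control (6 mice), with each acid given as its carbon-13 labelled sodium salt at 0.3 M and 2.4 mmol/h/kg. The liver RNA of each group was combined and hybridised to 1 array, so 4 arrays stand for 22 mice.

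ABC proteins bind and split ATP to move substrates across membranes, and in hepatocytes those of the canalicular membrane load bile with phospholipid, sterols and conjugates. Slco and Slc22 proteins are carriers that take up bile acids, hormones, drugs, carnitine and other organic anions and cations, mostly from the blood side. A few ABC proteins do not transport at all and act in translation. Several of these genes are known targets of the receptors LXR, PXR, CAR and FXR and of the antioxidant regulator NRF2.

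No transporter above a level floor, defined further on, differed from control by 1.5-fold with any acid, which is near what all genes showed. Below that floor by its mean, the organic anion carrier Slc22a26 was 3.11-fold above control with propionate. Values are log2 expression values, and a difference of 0.58 on that scale is 1.5-fold. With 1 array per group there is no spread between replicates, so no difference below has a replicate check and no p-value is given. The butyrate pool held fewer mice, so each liver weighed more in it. All comparisons with control share the same control array, so an error in that array enters each of them.

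The starts of 5 genes are shown for the members that the results turn on, as windows of 250 bases before and 50 after the start from RefSeq (GRCm38.p6), read 5′ to 3′ on the gene's strand. Slc22a26 (chr19:7802618-7802917, minus strand) is shown because its ratio was the largest, and Slco1a4 (chr6:141856171-141856470, minus strand) because it had the lowest ratio among members of clear level. Abcc2 (chr19:43782058-43782357, plus strand) and Abcc4 (chr14:118706170-118706469, minus strand) are shown as exporters known to be induced through NRF2. In these 4 windows capitals mark matches to TGACNNNGC, the core of the antioxidant response element that NRF2 binds, searched on both strands. Abcg5 (chr17:84682962-84683261, minus strand) starts close to Abcg8, which runs the other way, and there capitals mark the 209 bases that also lie in the window of Abcg8.
Slc22a26: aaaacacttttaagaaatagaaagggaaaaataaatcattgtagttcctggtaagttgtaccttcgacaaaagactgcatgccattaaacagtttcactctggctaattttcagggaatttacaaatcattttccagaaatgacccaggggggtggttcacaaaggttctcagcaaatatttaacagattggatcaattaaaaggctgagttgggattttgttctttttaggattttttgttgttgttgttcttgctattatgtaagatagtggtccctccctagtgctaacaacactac
Slco1a4: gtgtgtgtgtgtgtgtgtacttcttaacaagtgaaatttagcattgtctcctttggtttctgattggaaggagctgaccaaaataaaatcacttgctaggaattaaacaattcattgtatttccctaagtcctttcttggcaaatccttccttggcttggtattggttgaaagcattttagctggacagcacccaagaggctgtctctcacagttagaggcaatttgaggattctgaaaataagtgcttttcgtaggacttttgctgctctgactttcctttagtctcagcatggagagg
Abcc2: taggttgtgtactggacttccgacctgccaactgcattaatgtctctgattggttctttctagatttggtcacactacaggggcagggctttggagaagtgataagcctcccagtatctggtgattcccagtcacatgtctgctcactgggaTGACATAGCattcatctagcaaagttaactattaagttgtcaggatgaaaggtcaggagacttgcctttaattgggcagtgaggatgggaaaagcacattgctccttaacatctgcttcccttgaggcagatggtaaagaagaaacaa
Abcc4: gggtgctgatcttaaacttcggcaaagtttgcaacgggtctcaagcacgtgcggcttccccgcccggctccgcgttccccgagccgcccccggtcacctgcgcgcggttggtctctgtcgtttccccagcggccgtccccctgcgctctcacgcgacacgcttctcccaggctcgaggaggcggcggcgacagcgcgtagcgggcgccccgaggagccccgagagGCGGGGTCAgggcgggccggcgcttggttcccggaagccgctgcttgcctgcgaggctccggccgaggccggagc
Abcg5: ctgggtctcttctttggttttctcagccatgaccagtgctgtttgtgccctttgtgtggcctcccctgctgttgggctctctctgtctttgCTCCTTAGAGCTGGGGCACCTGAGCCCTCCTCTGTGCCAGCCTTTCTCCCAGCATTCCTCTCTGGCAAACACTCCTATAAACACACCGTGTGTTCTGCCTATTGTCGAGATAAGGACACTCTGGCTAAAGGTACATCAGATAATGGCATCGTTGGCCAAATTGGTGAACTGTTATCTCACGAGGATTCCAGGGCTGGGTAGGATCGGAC
RefSeq windows were found for 67 of the 80 members, and 9 of these (13.4%) held the core, against 12.4% of all 32851 windows of that length. For members only the first listed window of each gene was searched. The share of all windows counts every listed window, so a gene can enter it more than once. Abcc2 and Abcc4 were among the 9, and Abcc1 and Abcc3, also known as NRF2 targets, were not. Members without a window could not be searched, and whether Abcc1 and Abcc3 had one is not given here. A match describes letters in the window and is not a binding site.

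Of the 80 members, 41 had a mean over the 4 arrays of 5.55 or more, which is the midpoint of the means of all genes and served as a level floor. These were 9 of 16 Abca, 4 of 7 Abcb, 7 of 10 Abcc, 4 of 6 Abcg, 6 of 15 Slco and 6 of 21 Slc22 genes, together with Abcd4, Abce1 and all 3 Abcf genes. Of the 41, 0 were at least 1.5-fold above or below control with any acid. Among all 9410 genes at or above the floor, 0.627% were 1.5-fold higher and 0.51% lower with acetate, 0.701% higher and 0.404% lower with propionate, and 0.755% higher and 0.361% lower with butyrate. At such shares a set of 41 genes holds few or none, so the count of 0 is near the background. At a lower threshold of 0.322 on the log2 scale, 1 member was higher and 1 lower with acetate (2.93% and 2.9% of all genes), 0 higher and 1 lower with propionate (3.04% and 3.16%), and 0 higher and 0 lower with butyrate (3.12% and 2.02%). These were Abca5 and Abcb8 with acetate and Slco1a4 with propionate.

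Most ratios were smaller still. Within 1.2-fold of control lay 38 of 41 members with acetate (92.7%, against 90.1% of all genes at or above the floor), 39 with propionate (95.1% against 89.8%) and 40 with butyrate (97.6% against 91.4%). The median absolute log2 ratio of the 41 was 0.13 with acetate, 0.095 with propionate and 0.074 with butyrate, and that of all 9410 genes was 0.087, 0.088 and 0.081. The signed medians were 0.030, -0.046 and -0.013 for the 41 members and -0.011, -0.034 and -0.0036 for all. Below control lay 43.9% of the 41 with acetate, 70.7% with propionate and 51.2% with butyrate. Of all genes at or above the floor, 53.8%, 60.8% and 51.3% did. With each array centred on its median above the floor, the shares of all genes were 48.7%, 49.4% and 52.6%. The counts by role further on are to be read beside these shares. As a guide to measurement noise, the log2 ratios of 1155 olfactory and vomeronasal receptor genes, which liver does not use, had an SD across genes of 0.16 with acetate, 0.18 with propionate and 0.17 with butyrate. That spread is between genes on the same arrays and is no replicate error. It comes from genes that liver does not use, so it need not hold for genes at high levels.

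**Figure D1:**
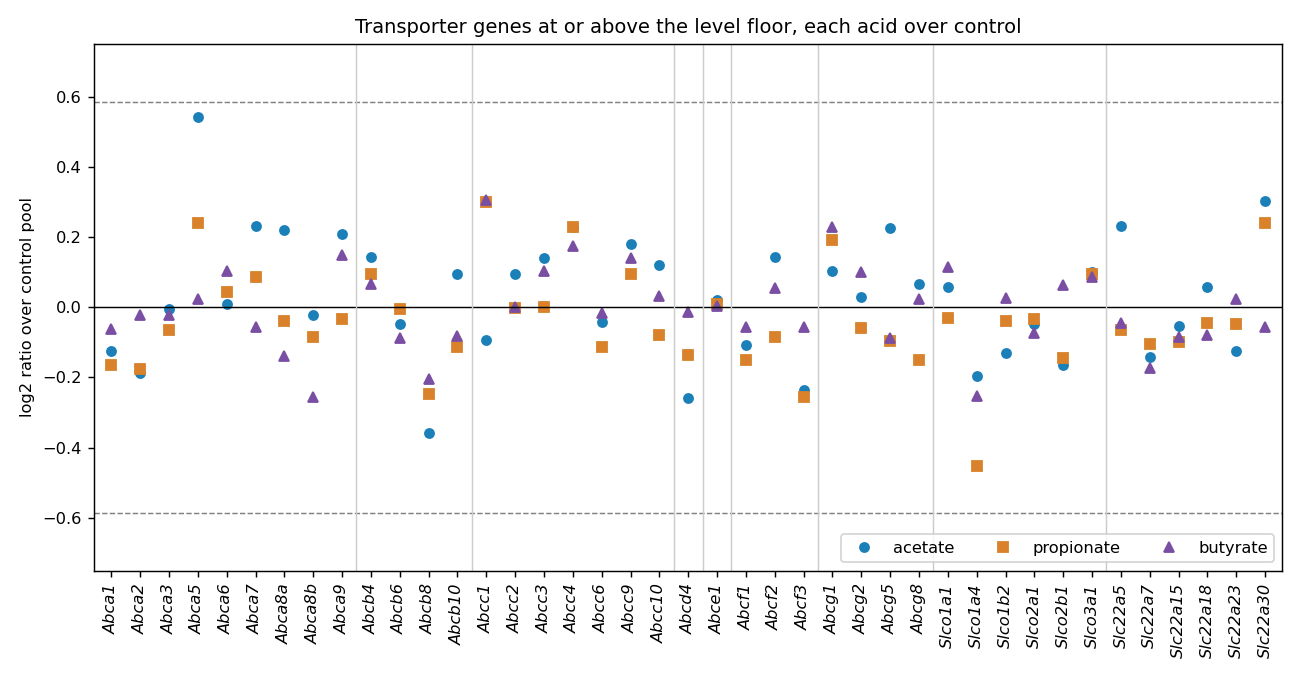
Log2 ratio over the control pool (vertical axis) of the 41 transporter genes at or above the level floor (horizontal axis, grouped by family), with acetate as circles, propionate as squares and butyrate as triangles, 1 array per group. Dashed lines mark 1.5-fold; every point lies between them, with Abca5 after acetate nearest to the upper line and Slco1a4 after propionate nearest to the lower one.

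**Figure D2:**
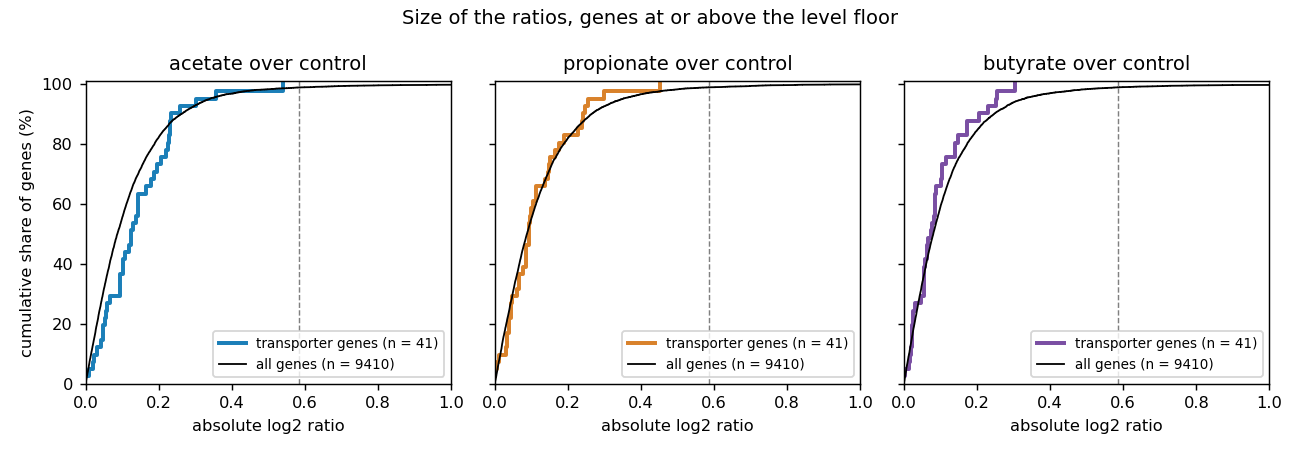
Cumulative share of genes (vertical axis, percent) by absolute log2 ratio over control (horizontal axis), for the 41 transporter genes (coloured) and all 9410 genes at or above the floor (black), 1 panel per acid. The coloured line ends left of the dashed 1.5-fold line in each panel; with acetate it runs below the black line at small ratios, where the medians are 0.13 and 0.087.

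The 6 exporters of the canalicular membrane followed here, without Abcb11 and Abcb1a, differed little. Abcc2, which moves bilirubin glucuronides and other conjugates into bile, stood at 11.37, 11.28 and 11.28 after acetate, propionate and butyrate, against 11.28 in control. Abcb4, the phospholipid flippase of bile, stood at 10.64, 10.59 and 10.56 after the acids, against 10.50 in control. All 3 acid pools were thus above control for Abcb4, by 0.14, 0.095 and 0.067. These ratios are smaller than the SD of the receptor genes, but that SD need not hold at the level of Abcb4. Abcg2, an exporter of sulfates and porphyrins, was at 8.17, 8.08 and 8.24 after the acids, against 8.14 in control. Abcb1b, a multidrug exporter, lay below the floor in every pool, between 4.79 and 5.02. Of the 6 canalicular genes, 5 lay above control with acetate, 1 with propionate and 4 with butyrate, with medians of 0.080, -0.073 and 0.012. With each array centred on its median above the floor, the counts were 5, 2 and 3. The shares above control of all genes at or above the floor were 46.2%, 39.2% and 48.7%, and 51.3%, 50.6% and 47.4% with centring.

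Abcg5 and Abcg8 encode the paired subunits that export cholesterol and plant sterols into bile and share the start region shown above. Abcg5 stood at 10.44 after acetate, 10.12 after propionate and 10.13 after butyrate, against 10.21 in control, so the acetate pool was the high one, by 0.22 over control. Abcg8 stood at 9.39, 9.17 and 9.35 after acetate, propionate and butyrate, against 9.32 in control. The ratio of Abcg8 was 0.067 with acetate and -0.15 with propionate. Along with Abca1 and Abcg1 these are the members best known as LXR targets, and the median of the 4 was 0.085, -0.12 and -0.019 with acetate, propionate and butyrate. The receptor gene Nr1h3, which encodes LXRalpha, had ratios of -0.059, 0.15 and 0.025.

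On the blood side, 4 of 6 exporter genes lay above control with propionate and with butyrate, and 3 with acetate. The shares of all genes at or above the floor were 39.2% with propionate, 48.7% with butyrate and 46.2% with acetate. Abcc3, which returns conjugates and bile acids to the blood, stood at 9.13, 8.996 and 9.10 after acetate, propionate and butyrate, against 8.994 in control. Abcc4, an exporter of cyclic nucleotides and bile acids, stood at 5.74, 5.74 and 5.69 after the acids, against 5.51 in control, which is just below the floor. Its ratios of 0.23, 0.23 and 0.17 were among the 6 highest of the 41 with each acid. Abcc1, an exporter of glutathione conjugates, was high after propionate (5.94) and butyrate (5.94) and not after acetate (5.55), against 5.64 in control. Abcc5, an exporter of cyclic nucleotides, had a mean below the floor and stood at 5.49, 5.56 and 5.43 after the acids, against 5.11 in control, with ratios of 0.38, 0.45 and 0.32. Abcc6, whose loss in humans causes ectopic mineralisation, was at 9.24, 9.17 and 9.27 after the acids, against 9.28 in control.

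Abcc1 to Abcc4 are known in mouse as genes that rise when NRF2 is activated. The median ratio of the 4 was 0.12 with acetate, 0.11 with propionate and 0.14 with butyrate, with 3, 3 and 4 of them above control and none by 1.5-fold. With each array centred the counts above control were 3, 4 and 3, and with cyclic loess 3, 3 and 3. The shares above control of all genes at or above the floor were 46.2%, 39.2% and 48.7%. They were 51.3%, 50.6% and 47.4% with centring, and 49.1%, 47.6% and 48.5% with cyclic loess. At the shares of all genes past 1.5-fold given above, a set of 4 holds few or none. The gene of NRF2 itself, Nfe2l2, stood at 9.93, 9.85 and 9.82 after acetate, propionate and butyrate, against 9.63 in control. The antioxidant core was found in the windows of Abcc2 and Abcc4, and Abcc1 and Abcc3 were not among the members with a match. Whether Abcc1 and Abcc3 had a window to search is not given here, so the core cannot be called absent from them. Abcc2 was within 0.094 of control in each pool, whereas Abcc4 was above control in each.

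Uptake carriers of the sinusoidal membrane included the lowest ratio over control among the 41. Of 5 measured genes, 4 were below control with acetate, 5 with propionate and 2 with butyrate, with medians of -0.14, -0.11 and 0.026. With each array centred on its median the counts below control were 4, 4 and 2. Of all genes at or above the floor, 53.8%, 60.8% and 51.3% lay below control with acetate, propionate and butyrate. Centring made these shares 48.7%, 49.4% and 52.6%. Slco1a4, a broad uptake carrier of steroids and organic anions, gave the lowest ratio of the 5 carriers. It stood at 8.71, 8.46 and 8.66 after acetate, propionate and butyrate, against 8.91 in control. The propionate pool was the low one, 1.37-fold below control (-0.45), and the acetate and butyrate pools were lower than control by less (-0.20 and -0.25). Set against the average of the 3 remaining pools, the propionate ratio was -0.30, and those of acetate and butyrate were 0.039 and -0.036.

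Other uptake carriers did not show the same values as Slco1a4, though Slc22a7 too lay below control with each acid. Slco1a1, the neighbour of Slco1a4 on chromosome 6 and a male-predominant carrier of mouse liver, stood at 11.16, 11.07 and 11.21 after acetate, propionate and butyrate, against 11.10 in control. Slco1a5 and Slco1a6, of the same subfamily, lay below the floor. Their ratios with acetate, propionate and butyrate were 0.024, 0.11 and 0.23 for Slco1a5 and 0.071, 0.30 and 0.17 for Slco1a6. Slco1b2, the main carrier of conjugated bilirubin and bile acids of its family in mouse liver, was at 10.44, 10.53 and 10.60 after the acids, against 10.57 in control. Slco2b1, a carrier of steroid sulfates, was low after acetate (9.22) and propionate (9.24), against 9.45 after butyrate and 9.38 in control. Slc22a7, an organic anion carrier, was at 8.16, 8.19 and 8.13 after the acids, against 8.30 in control. The cation carrier Slc22a2, typical of kidney, lay between 3.57 and 3.92. Slco2a1, the prostaglandin carrier, and Slco3a1 had ranges over the 4 pools of 0.074 and 0.10.

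Carnitine is needed to carry long-chain fatty acids into mitochondria, and Slc22a5 is its high-affinity carrier. Slc22a5 stood at 9.22 after acetate, 8.92 after propionate and 8.94 after butyrate, against 8.99 in control. Acetate was the high pool, by 0.23 over control. The related Slc22a4 and Slc22a21 lay below the floor in all pools, with ratios between -0.19 and 0.055. Slc22a30, a member of the organic anion branch, was high after acetate (9.55) and propionate (9.49), against 9.19 after butyrate and 9.25 in control. A probe set listing both Slc22a28 and Slc22a30, not in that average, stood at 9.40 in control. Its ratios were 0.15, 0.051 and -0.17 with acetate, propionate and butyrate. Another, listing Slc22a30 and Slc22a29, stood at 3.15 in control and had ratios of 0.34, 0.27 and 0.056. The remaining Slc22 genes above the floor, Slc22a15, Slc22a18 and Slc22a23, had ratios between -0.13 and 0.057.

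Sterol and phospholipid transporters outside bile secretion also stayed within 1.5-fold. Abca1, which loads cholesterol onto apolipoprotein A-I, stood at 10.36, 10.32 and 10.42 after acetate, propionate and butyrate, against 10.48 in control, the highest of the 4 values. Abcg1, which passes cholesterol to mature HDL and is abundant in macrophages, stood at 7.37, 7.46 and 7.496 after the acids, against 7.27 in control, the lowest of the 4. Abca2, of lysosomes and late endosomes, was at 7.62, 7.63 and 7.78 after the acids, against 7.80 in control. Abca3 ranged by 0.066 over the 4 pools, and Abcg4, below the floor, by 0.38. Abca7, a phospholipid transporter, was at 6.03 after acetate, 5.88 after propionate and 5.74 after butyrate, against 5.80 in control. Of 9 genes in this role, 6, 4 and 4 lay above control with acetate, propionate and butyrate, and 7, 4 and 4 with cyclic loess. The shares of all genes at or above the floor were 46.2%, 39.2% and 48.7%, and 49.1%, 47.6% and 48.5% with cyclic loess.

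Abca5, a transporter of lysosomes and endosomes, had the widest range of the 41. It stood at 6.33, 6.03 and 5.81 after acetate, propionate and butyrate, against 5.79 in control, which put acetate 1.46-fold above control (0.54), propionate 0.24 above and butyrate level with it. Abca5 lies on chromosome 11 beside Abca6, Abca8a, Abca8b and Abca9, and all 5 were above the floor. With acetate their ratios were 0.54 for Abca5, 0.22 for Abca8a, 0.21 for Abca9, 0.0090 for Abca6 and -0.023 for Abca8b, with a median of 0.21. The medians of the same 5 were -0.034 with propionate and 0.022 with butyrate. Butyrate had the lowest values of Abca8a (8.13, against 8.27 in control) and Abca8b (7.69, against 7.94 in control).

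Of 3 mitochondrial ABC proteins, 1, 0 and 0 lay above control with acetate, propionate and butyrate, and of 4 without a membrane part, 2, 1 and 2. The shares of all genes at or above the floor were 46.2%, 39.2% and 48.7%. With cyclic loess or centring Abcb6 lay above control with propionate. Abcb8, an inner mitochondrial membrane protein that acts in iron export, stood at 6.61, 6.72 and 6.76 after acetate, propionate and butyrate, against 6.96 in control. Control was the highest pool, and acetate was 1.28-fold below it (-0.36), the lowest ratio of the 41 with acetate. Abcb6, linked to porphyrin transport, and Abcb10, which acts in heme synthesis, had ratios between -0.11 and 0.094. Abcd4, which works in the export of cobalamin from lysosomes, was at 6.58, 6.70 and 6.83 after the acids, against 6.84 in control. The peptide transporter of lysosomes Abcb9 lay below the floor, between 4.73 and 4.97.

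Among the ABC proteins without a membrane part, Abce1, which recycles ribosomes, ranged by 0.022 over the 4 pools, the narrowest of all 80 members. That value averages 2 probe sets, at 9.92 and 5.44 in control, whose own ratios ran from -0.075 to 0.096. Their ratios had opposite signs with each acid, so the averaging itself narrowed the range. Abcf3 stood at 8.52, 8.50 and 8.69 after acetate, propionate and butyrate, against 8.75 in control. Abcf1, which takes part in translation initiation, was at 8.05, 8.01 and 8.11 after the acids, against 8.16 in control. Abcf2 went the other way after acetate, at 8.13, 7.90 and 8.04 after the acids, against 7.98 in control. Abcc9, a sulfonylurea receptor subunit of potassium channels, was at 8.71, 8.62 and 8.67 after the acids, against 8.53 in control, and its relative Abcc8 of the pancreatic beta cell lay between 4.27 and 4.37, below the floor.

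The other 39 members had means below the floor, and 1 of them passed 1.5-fold with an acid. Slc22a26, of the organic anion branch of Slc22, stood at 5.40 after acetate, 6.50 after propionate and 5.09 after butyrate, against 4.87 in control. Only the propionate pool was above the floor for it. The ratio over control was 3.11-fold with propionate (1.63), which ranked 6 of all 18820 genes, 1.45-fold with acetate (0.54) and 0.23 with butyrate. Without a floor 0.776% of all genes were 1.5-fold higher with propionate, 0.489% lower, and 1 of 80 members was higher. With acetate (0.696% of all genes higher, 0.494% lower) and butyrate (0.728% higher, 0.616% lower) 0 of 80 members were called. The ratios of the 1155 receptor genes with propionate ran from -1.01 to 1.94, with the SD of 0.18 given above.

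Slc22a26 lies on chromosome 19 in a row of related genes with Slc22a19, Slc22a27, Slc22a30, Slc22a8 and Slc22a6. With propionate their log2 ratios were 1.63 for Slc22a26, 0.58 for the renal organic anion carrier Slc22a8, 0.32 for Slc22a27, 0.24 for Slc22a30, 0.084 for Slc22a19 and -0.13 for Slc22a6. The median of the 6 was 0.16 with acetate, 0.28 with propionate and 0.00 with butyrate. Slc22a8 stood at 3.63, 3.97 and 3.46 after acetate, propionate and butyrate, against 3.39 in control, and Slc22a27 at 3.31, 3.57 and 3.06 after the acids, against 3.25 in control. Of 7 renal organic anion carriers, all below the floor, 4 lay above control with each acid, with medians of 0.076, 0.0105 and 0.031, and with propionate cyclic loess gave 3 and centring 5. Slc22a12 and Slc22a20 ranged by 0.27 each over the 4 pools, Slc22a13 by 0.44 and Slc22a22 by 0.15. Slc22a8 and Slc22a27 lie far below the floor, and only Slc22a30 of the 6 lies above it. Probes of close relatives can bind the same RNA, so it is uncertain which of these genes a value belongs to. A further 5 probe sets list several symbols, at least 1 of them matching a member, and were left out of the averages; their ratios ran from -0.27 to 0.34.

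**Figure D3:**
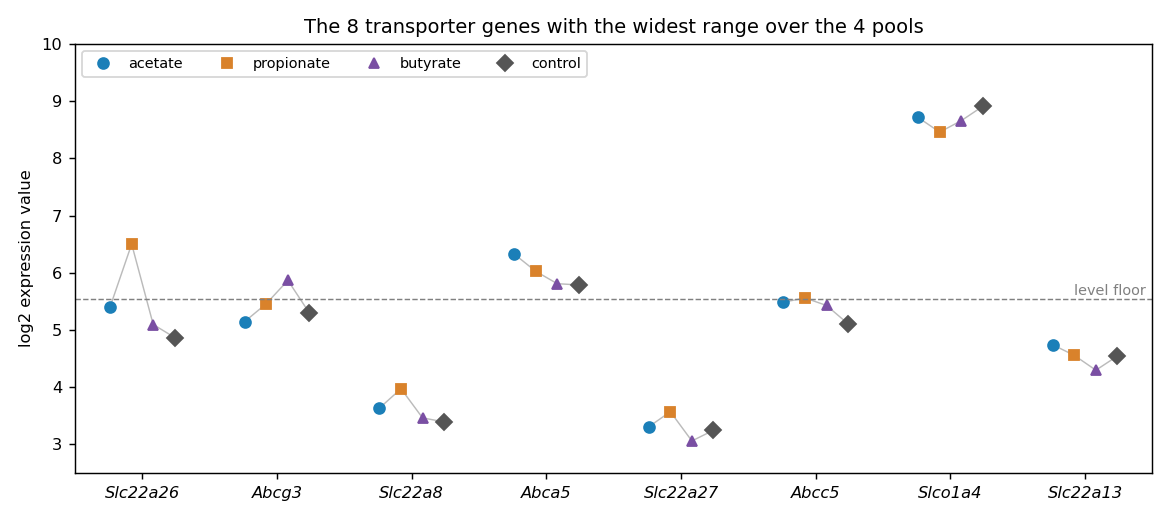
Log2 expression value (vertical axis) of the 8 transporter genes with the widest range over the 4 pools (horizontal axis, widest first), with acetate, propionate, butyrate and control from left to right within each gene and thin lines only to guide the eye. The dashed line is the level floor of 5.55; Slc22a26 crosses it with propionate alone, and Abca5 and Slco1a4 lie above it in all pools.

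Abcg3, a rodent relative of Abcg2, had the next widest range. It stood at 5.15, 5.46 and 5.87 after acetate, propionate and butyrate, against 5.29 in control, with ratios of -0.15, 0.16 and 0.57. Kupffer cell markers, of the resident macrophages of the liver, had medians of -0.145, 0.30 and 0.57 with acetate, propionate and butyrate, with 6, 13 and 14 of 14 markers above control. The summed level of these markers was 12.83, 13.14 and 13.34 after the acids, against 12.82 in control on the log2 scale, and all 14 had means at or above the floor. Neutrophil and monocyte markers had medians of -0.21, 0.12 and 0.63 with 2, 7 and 11 of 11 above control, and summed levels of 12.65, 12.70 and 12.97 after the acids, against 12.87 in control. That sum is mostly Lcn2, which hepatocytes also make in the acute phase, at 12.59, 12.62 and 12.81 after the acids, against 12.80 in control. The part of these cells in the values of Abcg3, and of Abcg1, whose ratios were 0.10, 0.19 and 0.23, was not tested. In pooled tissue RNA, fewer cells of a type and less RNA per cell cannot be told apart.

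Several lists of markers of other cell types had medians farther from 0 than the transporters. Stellate cell and fibroblast markers had medians of 0.34, 0.25 and 0.11 with acetate, propionate and butyrate, 10, 9 and 8 of 10 being above control. Those of skeletal muscle gave -1.77 as the median with butyrate, 10 of 11 being at least 1.5-fold lower, and -0.084 and 0.20 with acetate and propionate. Of all genes without a floor, 0.616% were 1.5-fold lower with butyrate. Pancreatic acinar markers had medians of -0.85, -0.63 and -0.33, all 9 being below control with each acid. Hepatocyte markers, all 10 of them above the floor, had medians of -0.0041, 0.0090 and 0.023. Periportal markers had medians of 0.092, 0.070 and 0.010, and pericentral markers of -0.036, -0.053 and 0.030. Medians with acetate, propionate and butyrate were 0.0023, 0.016 and 0.031 for endothelial markers, -0.036, 0.12 and 0.14 for lymphocytes and 0.11, -0.16 and 0.15 for cholangiocytes. They were -0.13, 0.13 and 0.17 for red cells, 0.125, -0.012 and 0.34 for intestinal epithelium and 0.015, -0.082 and -0.21 for adipocytes. The part of any of these cells in the values of the transporters was not tested.

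**Figure D4:**
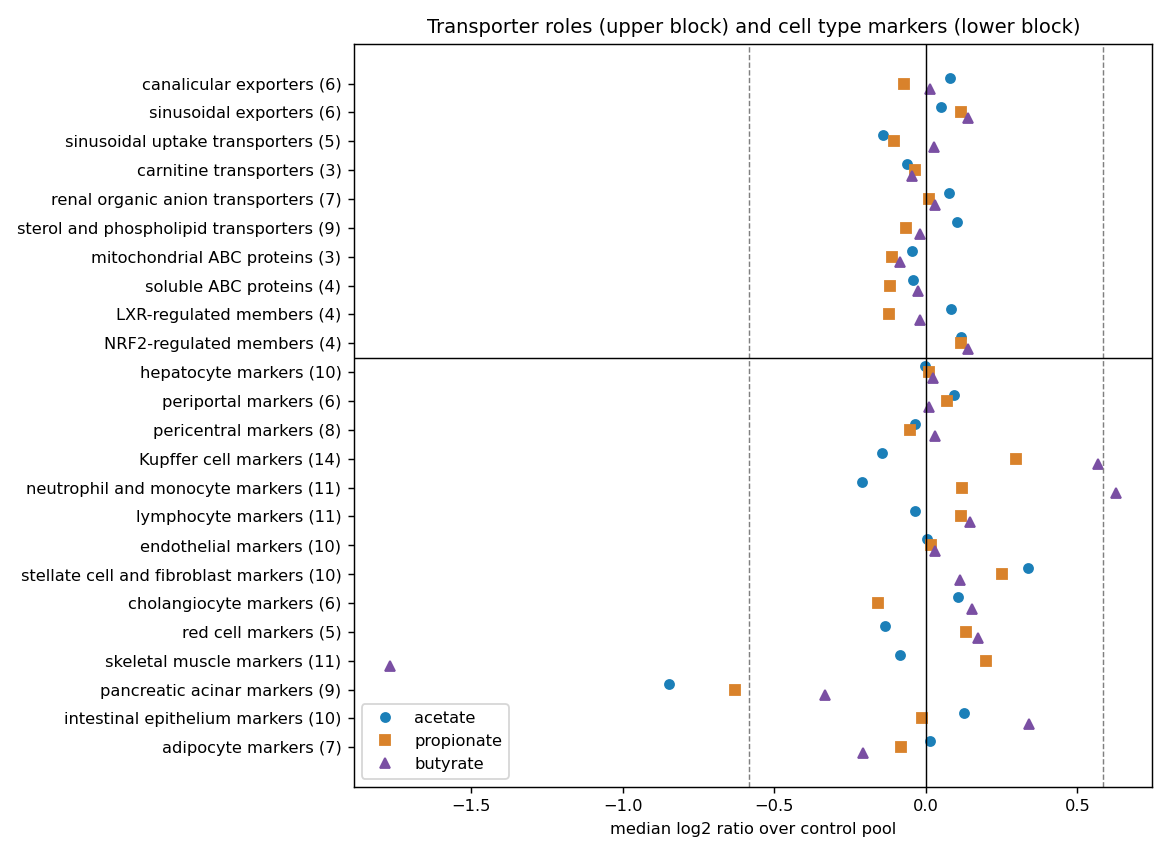
Median log2 ratio over the control pool (horizontal axis) of transporter roles with at least 3 measured genes (upper block) and of cell type marker lists (lower block), with the number of measured genes in brackets and 1 symbol per acid. The medians of the transporter roles lie between -0.14 and 0.14, while those of skeletal muscle, pancreatic acinar, Kupffer cell and neutrophil markers spread to -1.77 and 0.63.

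The acids differ in the length of their carbon chain and were given at the same molarity, rate and time, so they were also set against one another in 3 pairs, again with 1 array each and no test. Among the 41 members, 0 differed by 1.5-fold in any pair. For all genes at or above the floor the shares were 0.414% higher and 0.138% lower with propionate than with acetate, 1.05% higher and 0.85% lower with butyrate than with acetate, and 0.351% higher and 0.606% lower with butyrate than with propionate. The lowest ratio of the 41 was that of Abca5 with butyrate over acetate (-0.52) and the highest that of Abcc1 in the same pair (0.40). Abcc1 was as high with propionate over acetate (0.39). Abcg5 was lower with propionate (-0.32) and butyrate (-0.31) than with acetate, as was Slc22a5 (-0.30 and -0.28). Slc22a30 was lower with butyrate than with acetate (-0.36) and propionate (-0.30).

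Without a floor, 1 member passed 1.5-fold in each pair. Slc22a26 was 2.14-fold higher with propionate than with acetate (0.383% of all genes were called higher and 0.213% lower) and 2.65-fold higher with propionate than with butyrate (0.845% were called lower with butyrate and 0.425% higher). Abcg3 was 0.72 higher with butyrate than with acetate (0.914% were called higher and 0.956% lower). Between propionate and butyrate the members at or above the floor had the smallest spread, with 40 of 41 within 1.2-fold (97.6%, against 89.3% of all genes). Between butyrate and acetate 34 of 41 lay within 1.2-fold (82.9%, against 86.5%), and between propionate and acetate 37 (90.2%, against 93.1%).

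Genes that regulate these transporters, and hepatic carriers of other families, were measured as well. Of 9 measured regulators, 0 passed 1.5-fold with any acid. Among all genes at or above the floor 0.627%, 0.701% and 0.755% were higher with acetate, propionate and butyrate. Lower were 0.51%, 0.404% and 0.361%, so a count of 0 among 9 is near the background. The medians of the regulators were -0.0097, -0.0085 and 0.010 with acetate, propionate and butyrate. The widest ratios among them were those of Ahr, the dioxin receptor (0.17, 0.33 and 0.28), Nfe2l2 (0.29, 0.21 and 0.19) and Nr0b2, a repressor induced by FXR (0.086, -0.13 and -0.29). Nr1i2, which encodes PXR, stood at 10.12, 10.16 and 10.04 after the acids, against 10.11 in control. Slc10a1, the sodium-dependent bile acid carrier, stood at 12.75, 12.78 and 12.825 after acetate, propionate and butyrate, against 12.81 in control. Slc47a1, which expels organic cations, and Atp8b1, a lipid flippase of the canalicular membrane, had ratios between -0.095 and 0.0050, and Slc10a2 had ratios of 0.11, -0.10 and -0.28. Of 6 such carriers, 2, 3 and 3 lay above control with acetate, propionate and butyrate, and 1, 3 and 2 with cyclic loess. The 6 include Slc51a and Slc51b, both below the floor. The shares of all genes at or above the floor were 46.2%, 39.2% and 48.7%, and 49.1%, 47.6% and 48.5% with cyclic loess.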

How the data were processed

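Per the labels, RNA of the mice of a group was pooled at 500 ng per mouse, and 4 arrays were hybridised, 1 per group. The authors deposited a log2 value for each probe set, made with RMA per the submitters' processing notes. Which RMA version and options they used is not stated there. RMA makes the arrays' distributions alike (array medians 5.11 to 5.12), so a shift of all genes in a pool cannot be seen. Pearson's r between arrays was 0.990 to 0.996 over genes at or above the floor.

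Symbols came from the array annotation held by GEO, where, of 35556 probe sets, 21218 had 1 symbol, 1881 several and 12457 none. Values were averaged per symbol. All 80 members matched RefSeq (GRCm38.p6, used for names, neighbours and gene starts) by Entrez ID, and 0 symbols changed. Members on the same chromosome within 500 kb were called neighbours. Each comparison is a log2 ratio of 2 arrays, called at 1.5-fold. The level floor was the median of all genes' means.

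Members and gene lists were chosen with earlier results of these data known. Genes named are members past 1.5-fold, the 6 highest and 6 lowest per acid, the 8 of widest range, the 5 on each side with the largest smallest ratio over the acids, and the genes of the role and regulator lists. Abca6, Slc22a15, Slc22a18, Slc22a23, Slco1a5, Slco1a6 and Slco2a1 were named besides to complete their groups, after their values were seen. Python 3.11.15, pandas 2.3.3 and limma 3.58.1 (cyclic loess only) were used. The number of arrays limits the precision.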

Additional observations from a re-analysis of the deposited data

Results flagged for a closer look

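Slc22a26 was left out of the counts of genes at or above the level floor, because its mean over the 4 pools lay below it. It was nevertheless 1.63 higher on the log2 scale in the propionate pool than in the control pool, at 6.50 after propionate, against 4.87 in control. It rests on 1 probe set and 1 array per group.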

How the results depend on the processing

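The counts of 0 members past 1.5-fold, in each comparison with control and each pair of acids, held with the probe set of the highest mean, with a floor at percentile 75 (29 members), with cyclic loess and with arrays centred on their median above the floor. For the comparisons with control they also held against the mean of the other 3 pools and at 2-fold. All 41 members had a range over the pools below 1.5-fold, the largest being 0.54. The counts of 0 were therefore built in for the floor at percentile 75, the mean of the other 3 pools and 2-fold. Centring shifts all ratios of a comparison by the same amount. That amount was too small to take any of the 41 past 1.5-fold, so the 0 was built in there too. Those settings are no check of the counts. Of the 41, the probe set setting could change only Abce1. Without a floor (80 members), 1 member was higher with propionate than with control, 1 higher with propionate than with acetate, 1 higher with butyrate than with acetate and 1 lower with butyrate than with propionate. With the floor met in the acid or the control pool, an alternative chosen after seeing the data, 1 of 43 members was higher with propionate. That member, Slc22a26, met the floor only through the propionate pool, so the filter and the count rest on the same value and the count supports nothing. At a threshold of 0.322 on the log2 scale, 1 member was higher and 1 lower with acetate and 1 lower with propionate.

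The members' medians ranged over these settings from 0.0090 to 0.046 with acetate, from -0.060 to -0.0039 with propionate and from -0.021 to 0.021 with butyrate, where the sign changed. Against the mean of the other 3 pools, 19 of 159 ratios of named members moved by more than the SD of the receptor genes, and 0 did with cyclic loess, centring or the probe set of the highest mean. Centring shifts all ratios of an acid by the same amount, which was smaller than that SD. With propionate it took the median of all genes from -0.034 to 0.0019. The probe set setting could change only Abce1 among named members. For centring and the probe set setting the 0 was thus built in. Cyclic loess or centring turned the sign, among named members, of Abca3 with acetate, of Abca9, Abcb6, Abcc2, Slco1a1 and, below the floor, Slc22a12 and Slc22a13 with propionate, and of Abcc2 and Abce1 with butyrate, all with deposited ratios within 0.04 of 0. No paired analysis was possible because each group has 1 array.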
